A study of Mus musculus with 8 samples.

Results

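Gene expression in the substantia nigra of mice given α-ketoglutarate (AKG) alone was compared with that of control mice. The substantia nigra is the midbrain region whose dopamine neurons degenerate in Parkinson's disease. The comparison rests on 4 of the 8 libraries of the study: control libraries 1 and 2 (wild-type C57BL/6 males, treatment labelled control) and AKG libraries 1 and 2 (C57BL/6 males, treatment labelled AKG). The other 4 libraries, used for the estimate of spread and as side values, came from C57BL/6 males given an adeno-associated virus labelled AAV-α-synuclein (the vector group, 2 libraries) and from males given that virus and AKG (the combined group, 2 libraries). The labels name no virus for the control or AKG mice and do not say whether these received an empty one. The title of the series places AKG in the diet. The labels give no dose, duration, age of the mice or promoter of the virus. Nothing says whether the 2 libraries of a group came from separate animals, so p-values measure only the spread between these libraries, which may be technical. Of 54532 genes in the table, 13716 had a mean of at least 1 FPKM (sequenced fragments scaled to gene length and library size) over the 8 libraries and were tested.

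AKG is made in the tricarboxylic acid (TCA) cycle by the isocitrate dehydrogenases and from glutamate by glutamate dehydrogenase and transaminases, and is used by the AKG dehydrogenase complex. It is also the co-substrate of a large family of dioxygenases, among them the TET enzymes that oxidise methylated DNA, the histone demethylases with a JmjC domain and the prolyl hydroxylases that mark the hypoxia factor HIF-1α for destruction. Dopamine neurons make dopamine from tyrosine with tyrosine hydroxylase (Th) and aromatic amino acid decarboxylase (Ddc), load it into vesicles with the transporter Slc18a2 and take it back up with the transporter Slc6a3.

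The libraries held 16544190 to 19125423 reads on genes. Control library 1 stood apart, with a mean Spearman correlation across genes of 0.926 with the other 7, against 0.971 to 0.975 for each of those. Hcrt, the neuropeptide of a small group of hypothalamic neurons, stood at 2.14 FPKM in the first control library but at 197 in the second, with 116 to 224 in the other 6 libraries (a gene chosen after its values were seen). The AKG mean lay nearer control library 2 than control library 1 for 10705 of the tested genes (78.0%). Both AKG libraries were lower than control library 1 by a log2 of at least 1 for 282 genes (2.06%) and higher for 341 (2.49%), against 19 lower (0.139%) and 31 higher (0.226%) than control library 2. Between the 2 control libraries themselves, control library 1 was lower than control library 2 by as much for 174 genes and higher for 377. Each result is therefore given with all 8 libraries and without control library 1. Log2 differences are AKG minus control on the log2(FPKM + 1) scale, with their standard errors, and understate the change of low genes.

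With all 8 libraries, limma with Benjamini-Hochberg adjustment called 1 gene lower in the AKG group at an adjusted p under 0.05 (0.00729% of the genes tested) and 0 genes higher (0.0%). At an unadjusted p under 0.05 there were 986 genes lower (7.19%) and 1445 higher (10.5%), and voom on the recovered reads called 1 gene lower and 0 higher. Without control library 1 the adjusted calls were 0 (0.0%) in both directions, with 396 genes lower (2.89%) and 601 higher (4.38%) at an unadjusted p under 0.05. Without control library 2 they were 1298 lower (9.46%) and 2078 higher (15.2%), a comparison that then rests on control library 1 alone. Both AKG libraries lay below both control libraries for 3615 genes (26.4%) and above both for 3566 (26.0%). With 2 libraries against 2, an exact permutation test of a single value, two-sided, cannot go below 0.333. Past a log2 difference of 1 from both control libraries at once, both AKG libraries were lower for 10 genes (0.0729%) and higher for 7 (0.051%).

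The 1 gene called was Th, whose enzyme sets the pace of dopamine synthesis (ENSMUSG00000000214, minus strand of chromosome 7, 142892752 to 142931128 in GRCm38). It was at 38.8 FPKM in both control libraries and at 10.7 and 10.4 in AKG libraries 1 and 2, from 1774 and 1688 reads in control and 467 and 415 in the AKG group. Th fell 3.68-fold, by 1.79 ± 0.13 on the log2 scale (limma adjusted p = 0.0414, lower in 2 of 2 AKG libraries). Without control library 1 the difference was as large (-1.79 ± 0.16) but was no longer called (adjusted p = 0.283). Leaving out any 1 library other than control library 2 ended the call, with differences from -1.81 to -1.77 and adjusted p from 0.0685 to 0.738, whereas without control library 2 it was 0.00349. It was also lost with the replicate number as a block (adjusted p = 0.0931), without a mean-variance trend (0.0575), with library weights (0.347) and in a fit of the control and AKG libraries alone (0.237). It was called by voom (adjusted p = 0.0297) and missed the threshold once the trend with gene length was removed from each library (-1.64, adjusted p = 0.0675).

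Slc6a3, the dopamine transporter of the cell surface (ENSMUSG00000021609, plus strand of chromosome 13, 73536747 to 73578672), showed a wider gap than Th. It was at 24.1 and 28.5 FPKM in the control libraries and at 0.801 and 0.615 in the AKG libraries, which is 1610 and 1813 reads against 51 and 36. The means differed 37.2-fold and the log2 difference was -4.00 ± 0.42, which missed the threshold (adjusted p = 0.199), and -4.11 ± 0.53 without control library 1 (adjusted p = 0.575). It passed in the fit of the control and AKG libraries alone, where Th did not (adjusted p = 0.0412) and without control library 2 (adjusted p = 0.00793). No other tested gene had a larger gap between its nearest AKG and control library.

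Ddc (ENSMUSG00000020182, minus strand of chromosome 11, 11814101 to 11898144) was at 23.1 and 16.7 FPKM in control and at 8.81 and 6.91 in the AKG group. Slc18a2, the vesicular monoamine transporter (ENSMUSG00000025094, plus strand of chromosome 19, 59260878 to 59296012), was at 10.8 and 11.3 FPKM in control and at 5.74 and 4.41 in the AKG group. Both AKG libraries lay below both control libraries for each gene, and the log2 differences of -1.23 ± 0.17 and -1.0 ± 0.14 missed the threshold (adjusted p = 0.269 for both). Without control library 1 they were -1.01 ± 0.15 and -1.03 ± 0.17. Ddc and Slc18a2 are also used by serotonin and noradrenaline neurons, and the genes that define those, Tph2, Slc6a4, Dbh and Slc6a2, were at no more than 0.306 FPKM in any of the 8 libraries. In bulk tissue, fewer dopamine neurons and less of these RNAs per neuron cannot be told apart. Markers of thalamic and midbrain excitatory neurons differed in the opposite direction in the same libraries. Their mean levels (log2(FPKM + 1)) were 3.39 and 4.11 in control and 4.44 and 4.55 in the AKG group. Above both control libraries lay 13 of 16 (81.25%, against 26.0% of all genes). The part of the tissue sampled in the dopamine results was not tested.

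**Figure D1:**
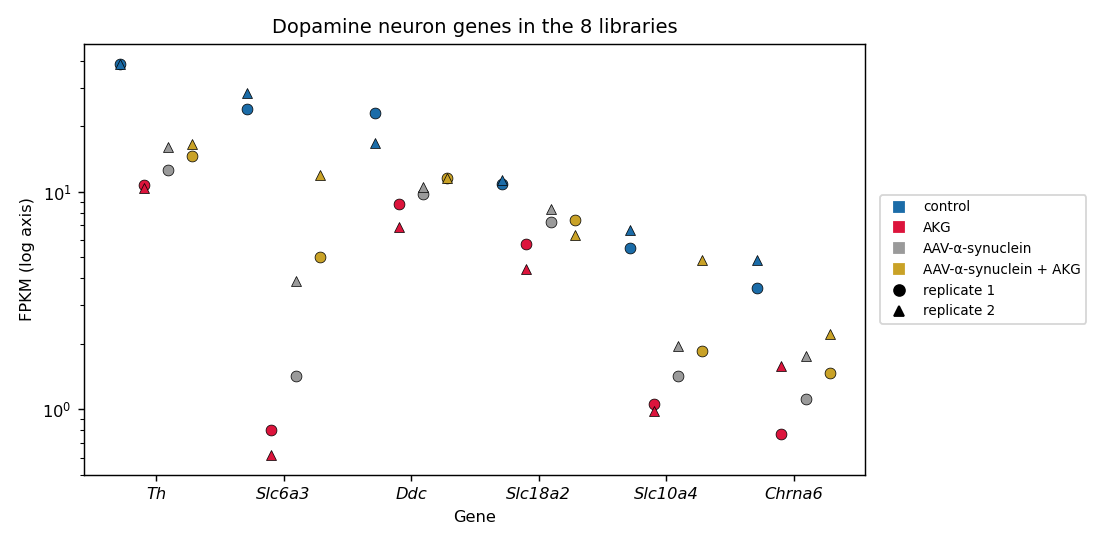
FPKM (log axis) of 6 dopamine neuron genes in the 8 libraries, 1 point per library, coloured by group and shaped by replicate. In all 6 genes both AKG libraries lie below both control libraries, and so do the vector and combined libraries. The widest separation of AKG from control is in Slc6a3 (24.1 and 28.5 FPKM in control, 0.801 and 0.615 in the AKG group).

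The promoter windows of these 4 genes are shown because they carry the synthesis, vesicle loading and uptake of dopamine itself. Each window runs 5′ to 3′ on the gene's own strand, from 250 bases before to 50 after the start site (RefSeq, GRCm38). Capitals mark exact matches, on either strand, to the motifs searched. Th is shown from chr7:142899946-142900245 (minus strand), Slc6a3 from chr13:73536497-73536796 (plus strand), Ddc from chr11:11898095-11898394 (minus strand, the upstream of its 2 windows) and Slc18a2 from chr19:59260628-59260927 (plus strand). The Th window lies inside the gene span given above, so its RefSeq start site is not the end of that span.
Th: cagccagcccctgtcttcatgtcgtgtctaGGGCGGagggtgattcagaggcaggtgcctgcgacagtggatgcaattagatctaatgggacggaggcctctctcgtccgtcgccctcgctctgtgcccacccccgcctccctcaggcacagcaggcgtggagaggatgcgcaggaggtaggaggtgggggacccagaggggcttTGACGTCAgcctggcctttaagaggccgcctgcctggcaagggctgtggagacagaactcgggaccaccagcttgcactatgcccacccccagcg
Slc6a3: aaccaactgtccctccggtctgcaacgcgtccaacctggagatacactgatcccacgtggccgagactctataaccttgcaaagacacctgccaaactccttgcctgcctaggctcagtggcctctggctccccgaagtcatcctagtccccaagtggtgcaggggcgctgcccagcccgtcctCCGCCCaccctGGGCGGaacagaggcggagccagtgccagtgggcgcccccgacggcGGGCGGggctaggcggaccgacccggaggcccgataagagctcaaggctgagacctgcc
Ddc: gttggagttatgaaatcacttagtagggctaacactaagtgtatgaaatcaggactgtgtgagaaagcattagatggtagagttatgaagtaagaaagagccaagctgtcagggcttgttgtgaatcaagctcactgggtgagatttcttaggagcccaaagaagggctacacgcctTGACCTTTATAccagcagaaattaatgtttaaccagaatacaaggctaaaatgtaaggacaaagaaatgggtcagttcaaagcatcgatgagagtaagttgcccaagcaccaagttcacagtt
Slc18a2: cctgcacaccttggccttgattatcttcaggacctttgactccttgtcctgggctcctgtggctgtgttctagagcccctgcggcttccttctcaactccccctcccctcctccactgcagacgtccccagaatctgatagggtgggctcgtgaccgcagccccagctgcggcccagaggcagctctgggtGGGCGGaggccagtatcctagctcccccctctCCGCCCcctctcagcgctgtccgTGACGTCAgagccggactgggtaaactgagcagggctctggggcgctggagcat

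The full cyclic AMP response element (TGACGTCA), the site of the CREB family, was found in the windows of Th, 45 bases before the start site, and Slc18a2, 4 bases before it. This motif was present in 588 of 32851 mouse promoter windows of the same length (1.79%). Its core (TGACG), found in 20.8% of windows, overlaps it and added 1 window of the list, that of Gch1. The binding element of the Nr4a receptors (AAAGGTCA), present in 1.51% of windows, was found in Ddc only, 73 bases before the start site, where it overlaps a reversed TATAAA. The GC box (GGGCGG) was found in Th, Slc6a3 and Slc18a2 among others, and in 35.7% of all windows. The other motifs searched were TAATCC (7.06% of windows), TAATTA (5.29%), TGTTTAC (3.65%) and TATAAA (13.6%), and none of the first 3 lay in the 4 windows shown. A match says only that these letters are there.

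Of the 10 genes for dopamine synthesis, storage and uptake, 9 passed the filter. All 9 lay below control in the mean and 8 in every library, against 26.4% of all genes, with 5 of the 9 lower at an unadjusted p under 0.05 (7.19% of all genes). The list's median was -0.62 with all 8 libraries and -0.54 without control library 1, where all tested genes had -0.01, and -0.97 without control library 2. Pcbd1 and Spr, of the pathway that makes and recycles the pterin cofactor of Th, differed less than Th. Pcbd1, which recycles the cofactor, was at 67.4 and 54.4 FPKM in control and at 48.6 and 41.8 in the AKG group (-0.42 ± 0.16, adjusted p = 0.270). Spr, which completes its synthesis, was at 19.3 and 16.7 FPKM in control and at 13.5 and 14.5 in the AKG group. Gch1, the first enzyme of that pathway, did not pass the filter, with 2.88 and 1.16 FPKM in control and 0.486 and 0.434 in the AKG group. Its 348 and 133 reads in control stood against 56 and 46.

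Among the other markers of dopamine neurons, Slc10a4, a vesicular protein of dopamine and acetylcholine neurons, was at 5.51 and 6.66 FPKM in control and at 1.06 and 0.981 in the AKG group. Its log2 difference was -1.81 ± 0.31 (adjusted p = 0.269), and -1.92 ± 0.39 without control library 1. Chrna6, a nicotinic receptor subunit of dopamine neurons, was at 3.60 and 4.85 FPKM in control and at 0.766 and 1.58 in the AKG group (-1.28 ± 0.25, adjusted p = 0.269). Anxa1, which marks a ventral subset of these neurons, was at 3.91 and 1.77 FPKM in control and at 0.936 and 1.13 in the AKG group. Sncg, γ-synuclein, was at 77.0 and 46.7 FPKM in control and at 28.0 and 40.0 in the AKG group. These 4 genes are all the tested members of the list that lay below both control libraries, so they do not stand for the rest of it. The differences of the list ran up to 0.88 above control. Of 15 tested genes of this list, 4 lay below both control libraries (26.7%, against 26.4% of all genes) and 2 above both (13.3%, against 26.0%), with a median of -0.16 and, without control library 1, -0.37. The dopamine receptor Drd2, at 6.14 and 10.96 FPKM in control and 7.07 and 7.49 in the AKG group, and the receptor tyrosine kinase Ret, at 4.62 and 12.6 against 7.94 and 8.89, lay between the 2 control libraries. Of the 3 genes of this list under the filter, Gucy2c, a receptor guanylyl cyclase, was at 0.601 and 1.17 FPKM in control and at 0.274 and 0.522 in the AKG group. The potassium channel Kcnj6 was higher in both AKG libraries, at 1.14 and 0.959 FPKM against 0.353 and 0.677, and Lpl, lipoprotein lipase, was at 0.464 and 0.462 against 0.487 and 0.462.

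Of 12 transcription factors that specify dopamine neurons, 7 passed the filter. En1 and Pitx3, which these neurons need to survive, did not. En1 was at 1.42 and 1.37 FPKM in control and at 0.207 and 0.112 in the AKG group, or 72 and 66 reads against 10 and 5. Pitx3 was at 1.15 and 1.07 FPKM in control and at 0.178 and 0.271 in the AKG group, or 34 and 30 reads against 5 and 7. In a fit of all genes with any value, their log2 differences were -1.05 ± 0.16 and -0.79 ± 0.14 (limma adjusted p = 0.399 and 0.468). Foxa2 was also lower in both AKG libraries, at 0.183 and 0.374 FPKM against 0.612 and 0.734. Of the others under the filter, Lmx1b was not separated, at 0.541 and 0.981 FPKM in control and 0.779 and 0.750 in the AKG group. Bnc2 differed little, at 0.057 and 0.060 against 0.046 and 0.051. Nr4a2, the receptor that switches on Th and Slc6a3 in development, was not separated, at 5.83 and 6.43 FPKM in control and 3.46 and 8.60 in the AKG group. Over the 7 factors tested the median was -0.12. Below both control libraries lay 2 (28.6%, against 26.4% of all genes) and above both 1 (14.3%, against 26.0%).

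The enzymes that break dopamine down lay closer to control. Monoamine oxidase A (Maoa) was at 17.0 and 17.8 FPKM in control and at 14.9 and 15.7 in the AKG group, a log2 difference of -0.18 ± 0.09 (adjusted p = 0.331). Aldh1a1, the aldehyde dehydrogenase of ventral dopamine neurons, was at 37.9 and 35.0 FPKM in control and at 25.3 and 32.4 in the AKG group (-0.34 ± 0.19, adjusted p = 0.366). The aldo-keto reductases Akr1a1 and Akr1b3 also lay below both control libraries. The 7 genes had a median of -0.18, and -0.21 without control library 1. Below both control libraries lay 4 of 7 (57.1%, against 26.4% of all genes), and 0 lay above.

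The tissue label was checked against cell type markers. Dopamine neuron genes were present in the control libraries as given above, as were markers of the GABA neurons around them, whose list of 13 tested genes had mean levels (log2(FPKM + 1)) of 4.08 in both control libraries and 4.07 and 3.80 in the AKG libraries. Pvalb, the parvalbumin of fast-firing neurons, was at 114 and 109 FPKM in control and at 84.6 and 90.6 in the AKG group. The 16 tested markers of thalamic and midbrain excitatory neurons had levels of 3.39 and 4.11 in control and 4.44 and 4.55 in the AKG group. Of these, 13 lay above both control libraries (81.25%, against 26.0% of all genes) and 2 below (12.5%, against 26.4%). Their median difference was 0.84 (0.39 without control library 1). The vector libraries (4.35 and 4.19) and the combined libraries (4.27 and 4.37) also lay above both control libraries in mean level. None of these 16 markers was at 0 in any library. The choroid plexus list had levels of 4.90 and 2.15 in control and 3.18 and 3.79 in the AKG group, so the AKG libraries lay between the control libraries. Red blood cell genes had levels of 1.46 and 5.26 in control and 4.31 and 4.95 in the AKG group, and ependymal genes 4.35 and 2.74 against 2.76 and 3.15. The part of these markers in any result given here was not tested.

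**Figure D2:**
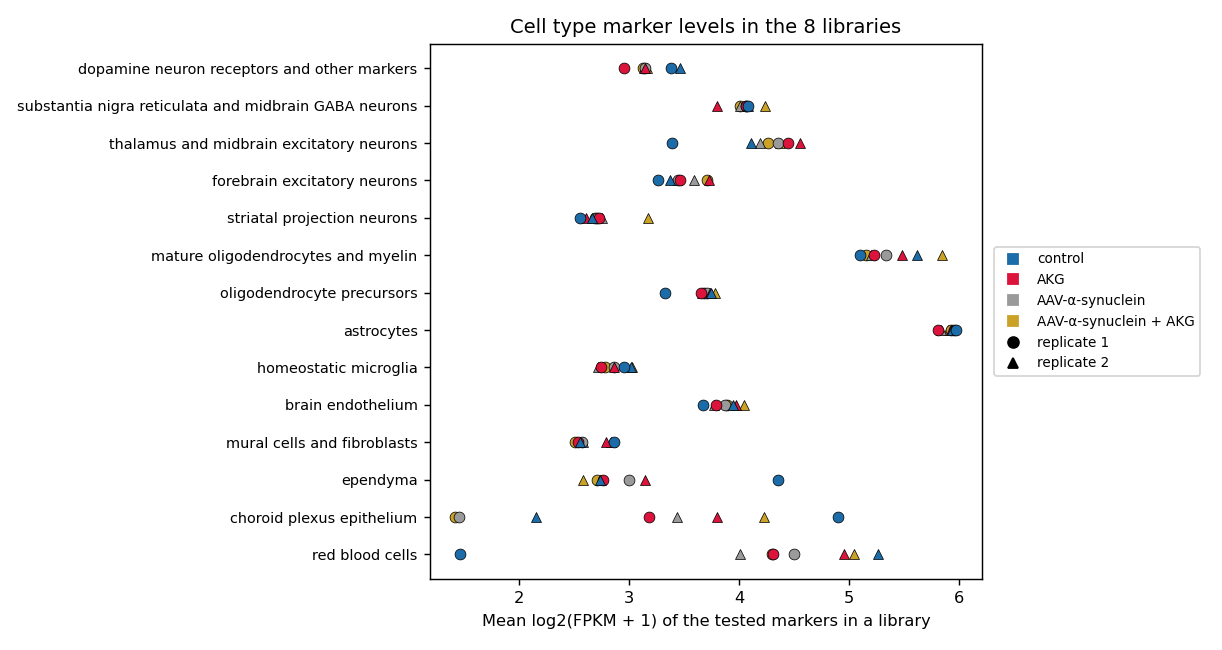
Mean log2(FPKM + 1) of the tested markers of 14 cell type lists in each of the 8 libraries, coloured by group and shaped by replicate. Control library 1 lies apart in ependyma (4.35), red blood cells (1.46) and thalamus (3.39). In choroid plexus it is the highest (4.90), but the libraries spread widely there, from 1.42 in combined library 1 to 4.22 in combined library 2. The mean of the dopamine neuron receptors and other markers is higher in both control libraries (3.38 and 3.46) than in both AKG libraries (2.95 and 3.15). Of its 15 genes, 4 lie below both control libraries (26.7%, against 26.4% of all genes) and 2 above both (13.3%, against 26.0%).

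Prkcd, a protein kinase C of thalamic relay neurons, had the widest gap above control among these 16 markers, at 15.0 and 45.02 FPKM in control and 97.1 and 91.5 in the AKG group (1.81 ± 0.47, adjusted p = 0.269). The nuclear receptor Rora was at 3.52 and 9.76 FPKM in control and at 17.8 and 15.3 in the AKG group. Plekhg1 was at 3.16 and 10.6 FPKM against 19.5 and 17.2, and Synpo2 at 2.86 and 6.96 against 13.4 and 11.5. In all 4 genes control library 1 was the lowest library and the AKG libraries lay well above control library 2 as well, with differences of 1.05 ± 0.30, 0.70 ± 0.15, 0.74 ± 0.15 and 0.75 ± 0.15 without control library 1. None of them was called in either fit.

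Genes of AKG metabolism were asked about because AKG is the compound given. Of 41 genes of the TCA cycle and of AKG supply and transport, 40 were tested, and 29 lay below and 11 above control (51.4% and 48.6% of all genes did). Both AKG libraries were below both control libraries for 23 of the 40 (57.5%, against 26.4% of all genes) and above both for 3 (7.5%, against 26.0%). The median difference was -0.10, and -0.12 without control library 1. At an unadjusted p under 0.05, 4 were lower and 0 higher (7.19% and 10.5% of all genes were). Slc25a10, the mitochondrial dicarboxylate carrier, was at 8.76 and 8.42 FPKM in control and at 6.08 and 6.27 in the AKG group (-0.42 ± 0.10, adjusted p = 0.269). Slc25a1, which exports citrate from mitochondria, was at 39.5 and 34.1 FPKM in control and at 27.5 and 26.7 in the AKG group (-0.43 ± 0.12, adjusted p = 0.269).

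Of the enzymes that make or use AKG, 3 are given whatever their values. Idh1, the cytosolic isocitrate dehydrogenase, was at 24.6 and 21.9 FPKM in control and at 20.0 and 21.7 in the AKG group. Glud1, glutamate dehydrogenase, was at 102 and 108 FPKM in control and at 101 and 97.5 in the AKG group. Ogdh, the first subunit of the AKG dehydrogenase complex, was at 40.6 and 53.7 FPKM in control and at 58.1 and 56.0 in the AKG group (0.28 ± 0.14, and 0.08 ± 0.10 without control library 1). Further along the cycle, succinate dehydrogenase subunit Sdhb was at 90.7 and 75.1 FPKM in control and at 58.5 and 63.7 in the AKG group, and malate dehydrogenase Mdh2 at 106 and 104 against 85.4 and 88.7. None of these 5 genes was called, and the log2 difference of Idh1 was -0.15 ± 0.11 and that of Glud1 -0.08 ± 0.10.

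Of 57 dioxygenases that use AKG, 54 were tested, and they split in both directions. Both AKG libraries lay above both control libraries for 24 of them (44.4%, against 26.0% of all genes) and below both for 12 (22.2%, against 26.4%). At an unadjusted p under 0.05, 9 were higher and 1 lower (10.5% and 7.19% of all genes were). The median was 0.06 (0.07 without control library 1). Kdm6b, a demethylase of histone H3 lysine 27, was at 1.62 and 2.11 FPKM in control and at 3.93 and 3.26 in the AKG group (0.68 ± 0.14, adjusted p = 0.269, and 0.56 ± 0.14 without control library 1). Kdm7a, another histone demethylase with a JmjC domain, was at 1.42 and 2.37 FPKM in control and at 3.59 and 3.47 in the AKG group. Tet3, a methylcytosine dioxygenase, was at 0.772 and 1.17 FPKM in control and at 2.15 and 1.70 in the AKG group (0.57 ± 0.17, adjusted p = 0.269). Jmjd1c, of the JmjC family, was at 1.75 and 2.42 FPKM against 3.52 and 3.24. These 4 genes are long, and the list's median once the trend with gene length was removed was -0.01.

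**Figure D3:**
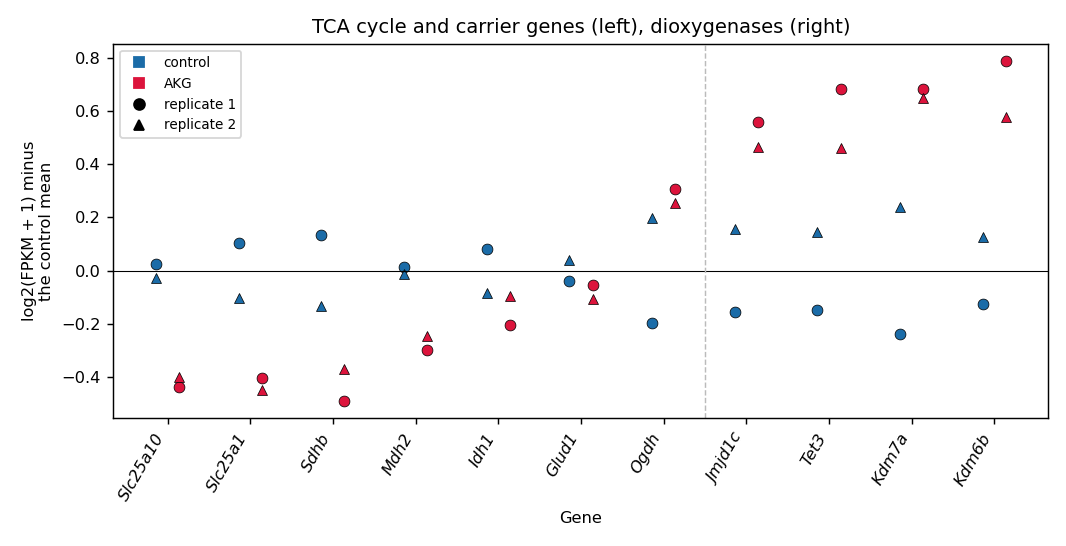
log2(FPKM + 1) minus the control mean for 7 genes of the TCA cycle and its carriers (left of the dashed line) and 4 AKG-dependent dioxygenases (right), 1 point per control or AKG library. Both AKG libraries lie below both control libraries in Slc25a10 and Slc25a1 and above both in Kdm6b and Kdm7a, while the mean differences of Idh1 and Glud1 are -0.15 and -0.08.

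Targets of HIF-1, the factor that the prolyl hydroxylases mark for destruction, lay slightly below control. Of 20 genes 19 were tested, and 15 were below control (51.4% of all genes were). Of these, 10 were below in every library (52.6% of the 19, against 26.4% of all genes). The median was -0.11 (-0.12 without control library 1). Ldha, lactate dehydrogenase A, was at 106 and 89.0 FPKM in control and at 70.6 and 74.7 in the AKG group (-0.41 ± 0.15, adjusted p = 0.270). The glucose transporter Slc2a1 was at 61.7 and 60.8 FPKM in control and at 51.6 and 55.9 in the AKG group. The glycolysis and pentose phosphate list, with 31 tested genes, had a median of -0.13 and -0.12 without control library 1. Its enzyme Tkt, transketolase, was at 41.7 and 43.8 FPKM in control and at 35.5 and 36.3 in the AKG group.

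For the nutrient sensor mTOR, 13 of 41 tested genes lay below both control libraries (31.7%, against 26.4% of all genes) and 16 above both (39.0%, against 26.0%). The median was -0.02 in both fits. Rheb, the small GTPase that activates mTOR, was at 21.0 and 19.7 FPKM in control and at 16.6 and 17.3 in the AKG group (-0.25 ± 0.09, adjusted p = 0.270, and -0.20 ± 0.09 without control library 1). Mtor itself was at 6.02 and 9.08 FPKM in control and at 12.6 and 10.9 in the AKG group (0.60 ± 0.18, and 0.34 ± 0.14 without control library 1). Lamtor1, part of the lysosomal platform that recruits mTOR, was at 34.7 and 29.0 FPKM in control and at 25.1 and 25.2 in the AKG group. Mtor lay above both control libraries and Rheb and Lamtor1 below both, and none of the 3 was called. The list as a whole split into 21 genes below and 20 above control.

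Autophagy genes were likewise spread, with 17 of 44 below both control libraries (38.6%, against 26.4% of all genes) and 11 above both (25%, against 26.0%). Their median was -0.02 (-0.04 without control library 1). Sqstm1, the cargo receptor p62, was at 244 and 236 FPKM in control and at 201 and 197 in the AKG group (-0.27 ± 0.11, adjusted p = 0.281, and -0.25 ± 0.12 without control library 1). Gabarapl1, an ATG8 protein of the autophagosome membrane, was at 352 and 348 FPKM in control and at 296 and 303 in the AKG group, and Atg5, needed to attach such proteins to lipid, at 12.1 in both against 10.1 and 10.3. Map1lc3b, the ATG8 protein LC3B, was at 32.9 and 32.7 FPKM in control and at 28.1 and 32.2 in the AKG group. The lysosomal list had a median of -0.13 over 46 genes (-0.06 without control library 1), with the protease Ctsb at 147 and 142 FPKM against 122 in both AKG libraries.

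Proteasome subunits were lower as a list. Of 36 tested, 35 lay below control (51.4% of all genes did) and 31 of them in every library (86.1% of the 36, against 26.4% of all genes). At an unadjusted p under 0.05, 13 were lower and 0 higher (7.19% and 10.5% of all genes were). The median was -0.27 and, without control library 1, -0.18. Psmb6, a catalytic subunit, was at 86.8 and 69.6 FPKM in control and at 50.2 and 54.8 in the AKG group, and Psmb1 at 48.1 and 41.2 against 30.1 and 33.0. Psmd12, of the regulatory particle, was at 38.9 and 38.7 FPKM in control and at 30.9 and 31.2 in the AKG group (-0.31 ± 0.10, adjusted p = 0.269, and -0.31 ± 0.11 without control library 1), so its difference was as large without control library 1.

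Cytosolic ribosomal protein genes had a median of -0.62 over 82 tested genes, and -0.29 without control library 1. In both AKG libraries 72 of 82 lay below both control libraries (87.8%, against 26.4% of all genes). At an unadjusted p under 0.05, 62 were lower (7.19% of all genes were). Mitochondrial ribosomal proteins had a median of -0.26 over 77 genes (-0.16 without control library 1), with Mrpl44 at 19.6 and 19.7 FPKM in control against 15.9 and 15.7. Among initiation and elongation factors, 38 of 62 lay below both control libraries (61.3%, against 26.4% of all genes). Among them was Eif2b2, a subunit of the exchange factor of eIF2, at 25.0 and 23.1 FPKM against 16.5 and 18.04. The median of these factors was -0.15, and -0.08 without control library 1.

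Nuclear genes of the respiratory chain were also lower as lists. Complex I genes had a median of -0.39 over 37 genes, with 31 below both control libraries (83.8%, against 26.4% of all genes). Complexes II to V had one of -0.39 over 47 genes, with 36 below both (76.6%). Without control library 1 both medians were -0.26. Ndufs8, an iron-sulfur subunit of complex I, was at 130 FPKM in both control libraries and at 95.1 and 104 in the AKG group (-0.38 ± 0.16, and -0.38 ± 0.20 without control library 1). Atp5s, a coupling factor of ATP synthase, was at 11.04 and 11.9 FPKM in control and at 8.86 and 8.37 in the AKG group. The 13 protein genes of the mitochondrial genome had a median of -0.10, which was -0.00 without control library 1. Below both control libraries lay 2 of the 13 (15.4%, against 26.4% of all genes). These were mt-Co2 at 296 and 313 FPKM against 175 and 224, and mt-Atp6 at 377 and 246 against 139 and 216.

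**Figure D4:**
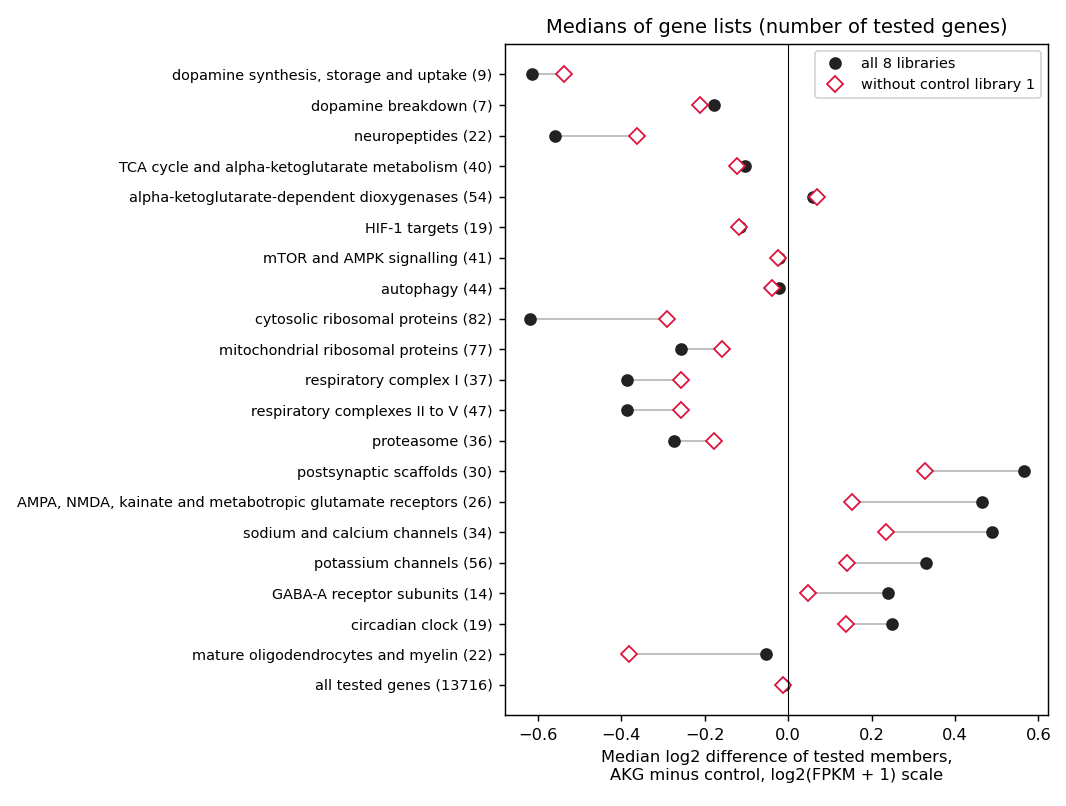
Median log2 difference, AKG minus control, of the tested members of 20 gene lists and of all tested genes, with all 8 libraries (filled circles) and without control library 1 (open diamonds). Without control library 1 the dopamine list is at -0.54 against -0.62 (-0.97 without control library 2, not drawn), and the TCA cycle list at -0.12 against -0.10, whereas the ribosomal (-0.62 and -0.29) and postsynaptic (0.57 and 0.33) medians move towards 0.

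Genes of synapses and ion channels lay above control. Postsynaptic scaffold genes had mean levels (log2(FPKM + 1)) of 2.94 and 3.47 in control and 3.84 and 3.75 in the AKG group. They were at 3.74 and 3.73 in the vector group and 3.82 and 3.70 in the combined group. For them a level above control was therefore not particular to the AKG group. Of 30 tested postsynaptic scaffold genes, 24 were above both control libraries (80%, against 26.0% of all genes) and 0 below (26.4% of all genes). Their median was 0.57 and, without control library 1, 0.33. Shank3, a scaffold of excitatory synapses, was at 5.36 and 22.5 FPKM in control and at 40.4 and 41.6 in the AKG group (1.78 ± 0.52, and 0.84 ± 0.17 without control library 1). Shank2, of the same scaffold family, was at 3.09 and 5.10 FPKM in control and at 9.04 and 8.72 in the AKG group (0.98 ± 0.19, and 0.69 ± 0.12 without control library 1). Of 26 glutamate receptor genes, 20 lay above both control libraries (76.9%, against 26.0% of all genes) and 0 below. Grm4, a metabotropic receptor, was at 3.20 and 9.55 FPKM against 15.2 and 14.4. The median of the glutamate receptor genes went from 0.47 to 0.15 without control library 1, and that of the GABA-A receptor subunits from 0.24 to 0.05. Of 34 tested synaptic vesicle and release site genes, 20 lay above both control libraries (58.8%) and 1 below. Their median went from 0.45 to 0.13 without control library 1, where 13 of them lay below control library 2 and 21 above.

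Voltage-gated channels were arranged in the same way. Sodium and calcium channel genes had 28 of 34 above both control libraries (82.4%, against 26.0% of all genes), with a median of 0.49 (0.24 without control library 1). Potassium channel genes had 32 of 56 above both (57.1%), with a median of 0.33 (0.14). Cacna1g, a T-type calcium channel of thalamic neurons, was at 3.92 and 10.5 FPKM in control and at 17.4 and 14.9 in the AKG group. Sodium and calcium channel genes had mean levels of 2.80 and 3.31 in control and 3.63 and 3.50 in the AKG group. They were at 3.54 in both vector libraries and 3.60 and 3.41 in the combined group. The thalamic and midbrain markers stood apart in the same direction, at 3.39 and 4.11 in control and 4.44 and 4.55 in the AKG group. These markers were at 4.35 and 4.19 in the vector group and 4.27 and 4.37 in the combined group. For both lists a level above control was thus not particular to the AKG group. The part of the thalamic and midbrain markers in the synapse and channel differences was not tested.

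The difference from control followed gene length across all tested genes. The median log2 difference was -0.25 in the shortest of 5 equal bins of genes (27 to 1977 bases) and 0.23 in the longest (7249 to 41324 bases), and -0.12 and 0.11 without control library 1. Across genes, which are not independent replicates, the Spearman correlation of the difference with gene length was 0.53, and 0.39 without control library 1. The ribosomal list had a median gene length of 1754.5 bases, the complexes II to V list 1675, and the postsynaptic list 9228, while the dopamine synthesis list, at 3456, lay in the middle bin (3347 to 4854 bases). With the length trend removed, the medians were -0.45 for ribosomal, -0.19 for complexes II to V, 0.34 for postsynaptic and -0.45 for dopamine synthesis genes. Proteasome genes then had a median of -0.18 in place of -0.27, complex I -0.19 in place of -0.39, mitochondrial ribosomal proteins -0.14 in place of -0.26, glutamate receptors 0.31 in place of 0.47 and GABA-A receptor subunits 0.13 in place of 0.24.

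**Figure D5:**
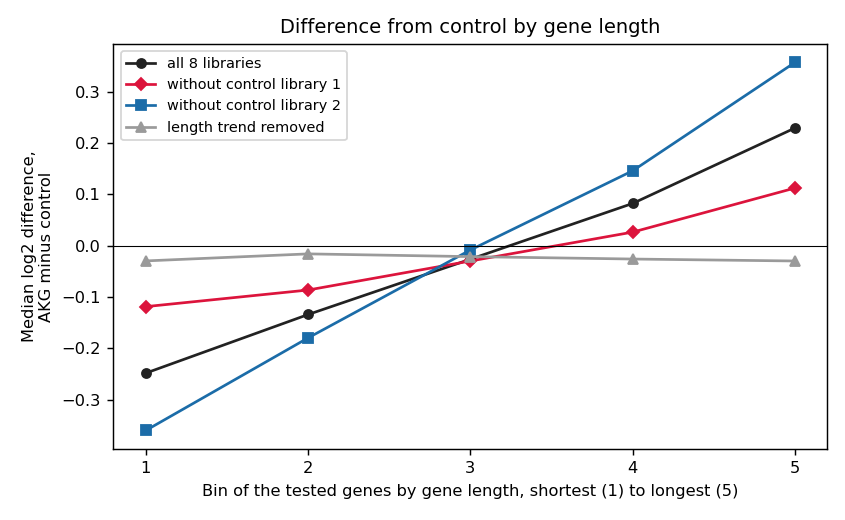
Median log2 difference, AKG minus control, in 5 bins of the 13716 tested genes ordered by gene length, with all 8 libraries, without either control library and with the trend removed. The median goes from -0.25 in the shortest to 0.23 in the longest bin, less steeply without control library 1 (-0.12 to 0.11), and is flat by construction once the trend is removed.

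Lipid genes were included because AKG can be turned into citrate, a source of carbon for lipid synthesis. Of 23 tested cholesterol synthesis genes, 7 lay below both control libraries (30.4%, against 26.4% of all genes) and 2 above (8.70%, against 26.0%). Their median was -0.02, and -0.12 without control library 1. Mvd, mevalonate diphosphate decarboxylase, was at 13.95 and 15.4 FPKM in control and at 11.8 and 11.3 in the AKG group (-0.32 ± 0.12, adjusted p = 0.270). Of 27 genes for polyunsaturated fatty acids, 10 lay below both control libraries (37.0%) and 4 above (14.8%), with a median of -0.01 (-0.10 without control library 1). Mfsd2a, the transporter that brings docosahexaenoic acid across the blood-brain barrier, was at 14.7 and 13.998 FPKM in control and at 11.1 and 12.1 in the AKG group (-0.28 ± 0.11, adjusted p = 0.270), below the 13.998 to 17.4 of all 6 other libraries. The desaturase Fads2 was at 135 and 145 FPKM in control and at 114 and 132 in the AKG group.

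Astrocyte genes were mixed, and the 18 tested had a median of -0.08. Below both control libraries lay 4 (22.2%, against 26.4% of all genes) and above both also 4 (22.2%, against 26.0%). Differences ran from -1.33 to 0.73, and the genes given here, Gfap and Agt, are from the lower side. Gfap, the intermediate filament that rises in reactive astrocytes, was at 157 and 75.7 FPKM in control and at 39.8 and 45.7 in the AKG group (-1.33 ± 0.31, adjusted p = 0.269). Control library 1 was the highest of all, and without it the difference was -0.81 ± 0.17 (adjusted p = 0.575). Agt, angiotensinogen, was at 348 and 219 FPKM in control and at 181 and 178 in the AKG group. The reactive astrocyte list had a median of -0.31 over 21 genes, which was -0.05 without control library 1.

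Microglia genes were read as a homeostatic and a disease-associated list. The 15 tested homeostatic genes had a median of -0.16 (-0.15 without control library 1). Above both control libraries lay 1 (6.67%, against 26.0% of all genes) and below both 5, a share not far from that of all genes (33.3%, against 26.4%). Among those below was Tmem119, at 12.8 FPKM in both control libraries and at 10.2 and 11.6 in the AKG group. The 17 tested disease-associated microglia genes had 12 below both control libraries (70.6%, against 26.4% of all genes) and 0 above (26.0% of all genes were). Their median was -0.40, and -0.17 without control library 1. Cd68, a lysosomal protein of phagocytes, was at 6.42 and 6.23 FPKM in control and at 4.49 and 4.27 in the AKG group (-0.45 ± 0.15, and -0.43 ± 0.18 without control library 1). MHC class I genes had 12 of 18 below both control libraries (66.7%) and a median of -0.28 (-0.21), with H2-D1 at 52.7 and 47.5 FPKM against 32.1 and 39.0.

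S100a8 and S100a9, the 2 chains of the neutrophil protein calprotectin, were among the 10 genes with the widest gaps below control (predicted genes, pseudogenes and genes under 200 bases passed over). S100a8 was at 12.98 and 3.92 FPKM in control and at 0.704 and 1.45 in the AKG group (-2.02 ± 0.46, and -1.27 ± 0.29 without control library 1). S100a9 was at 18.3 and 5.42 FPKM in control and at 1.35 and 2.37 in the AKG group (-1.98 ± 0.46, and -1.19 ± 0.23 without control library 1). Myoc, myocilin, was at 20.0 and 10.1 FPKM in control and at 3.40 and 4.72 in the AKG group (-1.60 ± 0.32, and -1.14 ± 0.26 without control library 1). In all 3 genes control library 1 was the highest and both AKG libraries were also below control library 2, with an adjusted p of 0.269 for each.

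Several of the genes that stood furthest apart have near-identical copies, so their values are uncertain. Srp54b, a copy of the gene for a subunit of the signal recognition particle, was at 3.81 and 3.24 FPKM in control and at 0.373 and 0.746 in the AKG group, or 332 and 269 reads against 31 and 57 (-1.54 ± 0.18, adjusted p = 0.241). It was at 3.80 and 5.01 FPKM in the vector group and 2.99 and 2.40 in the combined group. Its copy Srp54c was at 5.88 and 7.35 FPKM in control and at 4.69 and 5.69 in the AKG group, and Srp54a at 1.17 and 0.950 against 1.07 and 0.765, so the lower level was not shared to that extent by the copies. Rps27a, whose product is ubiquitin joined to a ribosomal protein, stood at 167 and 173 FPKM in control and at 37.5 and 52.9 in the AKG group (-1.91 ± 0.47, adjusted p = 0.269). It was at 47.9 and 40.0 FPKM in the vector group and 44.8 and 140 in the combined group. Tmsb15b1, a thymosin, was at 2.71 and 2.48 FPKM in control and at 0.618 and 0.672 in the AKG group. Sumo2, a ubiquitin-like modifier, had the widest gap above control among such genes, at 9.01 and 10.4 FPKM against 37.5 and 22.6 (1.49 ± 0.77, adjusted p = 0.329). It was at 28.4 and 5.36 FPKM in the vector group and 11.3 and 37.8 in the combined group. Libraries of the same group thus lay as far apart for Sumo2 as control and AKG libraries did.

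Shc3, Rasgrp1, Adcy1, Clmn and Cit made up the 10 widest gaps above control, with Sumo2, Prkcd, Shank1, Shank3 and the long noncoding RNA AC125351.1. Shc3, an adaptor of neuronal growth factor receptors, was at 3.32 and 9.54 FPKM in control and at 20.4 and 18.9 in the AKG group. Rasgrp1, a Ras activator, was at 14.1 and 26.7 FPKM against 48.0 and 47.9, and Adcy1, a calcium-stimulated adenylyl cyclase, at 3.33 and 16.5 against 29.8 and 34.0. Control library 1 was the lowest of the 8 libraries for each of these 3 genes. Their differences without it were 0.97 ± 0.18, 0.82 ± 0.17 and 0.91 ± 0.16, against 1.61 ± 0.37, 1.26 ± 0.27 and 1.92 ± 0.56 with all 8 libraries.

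The same dopamine genes were read in the groups that received the vector, with no call on any difference of effects. Th was at 12.6 and 16.1 FPKM in the vector group and at 14.6 and 16.6 in the combined group, and Slc6a3 at 1.43 and 3.87 against 4.99 and 11.9. Both AKG libraries lay below all 6 other libraries for Th, Slc6a3, Ddc and Slc18a2. The vector and combined libraries also lay below both control libraries for these genes, so a level under control was not particular to the AKG group. The same held for Slc10a4, Chrna6, Gch1, En1 and Pitx3. En1 was at 0 and 0.382 FPKM in the vector group and 0.392 and 0.405 in the combined group, and Pitx3 at 0.071 and 0.270 against 0.236 and 0.550. The difference of the effect of AKG with and without the vector was 1.90 ± 0.19 for Th (limma adjusted p = 0.276) and 5.35 ± 0.59 for Slc6a3 (adjusted p = 0.283). Over all genes 0 passed this test of the interaction, with 998 at an unadjusted p under 0.05 (7.28%).

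The remaining genes of a set named for this disease and tissue differed little or followed single libraries. Mbp, myelin basic protein, was at 515 and 748 FPKM in control and at 421 and 524 in the AKG group. Of 22 myelin genes 12 lay below the control mean and 20 below control library 2, and their median went from -0.05 to -0.38 without control library 1. The microglia gene Aif1 was at 4.19 and 3.02 FPKM against 2.44 and 3.31, and the immediate early gene Fos at 2.16 and 2.80 against 2.58 and 2.41. Elovl2, an elongase of polyunsaturated fatty acids, was at 2.64 and 3.57 FPKM in control and at 3.28 and 3.68 in the AKG group. Ttr, the transthyretin of the choroid plexus, was at 8778 and 435 FPKM in control and at 1334 and 2466 in the AKG group. Hbb-bs, a haemoglobin chain, was at 5.53 and 212 FPKM in control and at 85.2 and 141 in the AKG group. For Fos, Elovl2, Aif1, Ttr and Hbb-bs the libraries of the 2 groups overlapped.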

How the data were processed

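Messenger RNA was sequenced from mouse substantia nigra in 8 libraries, with 2 per group. The authors deposited a gene table in FPKM (sequenced fragments scaled to gene length and library size) with gene positions and lengths, per the file headers, and GRCm38 (mm10) is the build per the submitters' processing notes. The aligner, the counter and the use of strand are unknown: not given in the sources used here. FPKM values divided back by gene length and depth gave whole reads for 100% of values (tolerance 0.01), 16544190 to 19125423 per library, so 1 read per kilobase was worth 0.0515 to 0.059 FPKM.

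Genes that averaged at least 1 FPKM were tested on log2(FPKM + 1) with limma 3.58.1 in R 4.3.3, with 1 mean per group over all 8 libraries (4 residual degrees of freedom), a mean-variance trend and Benjamini-Hochberg adjustment at 0.05 over all 13716 genes. The script was tested on simulated data whose spread came from the vector, AKG and combined libraries. The simulation held no library that stood apart as control library 1 did, so it cannot speak for calls that rest on that library. Alternatives were other scalings, filters, a pseudocount of 0.1, a replicate block, library weights, removal of the trend with gene length (spline, 5 degrees of freedom), leaving out each library, and voom on the recovered reads. Named genes were those called, the 10 in each direction with the widest gap between nearest AKG and control libraries (predicted genes, pseudogenes and genes under 200 bases passed over), up to 4 members of each list described with the widest gap in the direction of its median, and a set of known genes. Hcrt, Pcbd1, Spr, Srp54a, Srp54c and the dopamine list members under the filter were chosen after their values were seen. Some genes that this rule names are not reported here. The members, gene lists and tests were chosen with earlier results of these data known. Promoters were read from RefSeq (GRCm38), and all 10 dopamine synthesis genes had a window. Figures were drawn with matplotlib 3.10.9 (Python 3.11.15).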

Additional observations from a re-analysis of the deposited data

How the results depend on the processing

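Th stayed lower under all alternatives run (from -1.88 to -1.64) but kept its call in only some of them, and in the fit of the control and AKG libraries alone the 1 gene called was Slc6a3, not Th. Without the filter 5 genes were called lower and 7 higher, and 11 of these 12 were listed at 0 in both libraries of a group, with at most 3 reads in the other. Non-overlapping genes then numbered 5456 lower and 5436 higher, among 30505 genes. With a minimum of 5 FPKM, 859 genes were higher at an unadjusted p under 0.05 and 1989 did not overlap on the higher side, among 7894 genes. A pseudocount of 0.1 added 1 call higher. Calls numbered 0 without a mean-variance trend, with library weights (562 lower at an unadjusted p under 0.05) and with the length trend removed. With the control and AKG libraries alone, 475 genes were lower and 703 higher at an unadjusted p under 0.05. By voom without control library 1 there were 0 calls, with 349 lower and 706 higher. Leaving out single libraries gave 0 to 1298 calls lower and 0 to 2078 higher. At an unadjusted p under 0.05 it gave 316 to 2426 lower and 377 to 3131 higher, and 4734 to 5909 lower and 4484 to 6164 higher genes did not overlap, where leaving out a library of either group alone widens this count. Planned quasi-likelihood count tests on the recovered reads were not run, because the deposited unit is FPKM, and voom was run on those reads instead. The cause of these shifts was not tested, apart from the number of genes or libraries that a setting changes.

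Replicate numbers did not pair the control and AKG libraries (correlation of deviations -0.23). With the replicate number as a block, 0 genes were called, with 704 lower and 1116 higher at an unadjusted p under 0.05. With the control numbers crossed, 0 were called, with 1120 and 1675.

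Differences of some genes that were not called changed sign. Under quantile scaling Glud1 was at 0.10, Fads2 at 0.0039, Fos at -0.014 and Ttr at 0.19. With the length trend removed Ret was at -0.041, Fads2 at 0.039 and Ttr at 0.14. By voom without control library 1, Hcrt was at -0.33, Ret at -0.58, Fos at -0.16, Elovl2 at -0.039, Ttr at 2.06 and Hbb-bs at -0.96. Over the settings that leave out 1 library, the lowest and highest differences were -0.32 and 5.66 for Hcrt, -0.53 and 0.74 for Ret, -0.12 and 0.15 for Fos, -0.029 and 0.30 for Elovl2, -2.27 and 2.06 for Ttr, -0.95 and 4.08 for Hbb-bs, -0.53 and 0.21 for Drd2, -0.67 and 0.43 for Nr4a2, and -0.22 and 0.010 for Srp54a. With 2 libraries a group, the spread between libraries limits the well-covered genes, and En1 and Pitx3 rest on 5 to 10 reads in an AKG library.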

Other observations

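Of 22 tested neuropeptide genes, 19 were below the control mean (51.4% of all genes were), while 5 were below both control libraries (22.7%, against 26.4% of all genes) and 1 above both (3 lower and 0 higher at an unadjusted p under 0.05), with a median of -0.56 and, without control library 1, -0.36, or -0.32 with the length trend removed. Tac1, the precursor of substance P, was at 15.2 and 15.1 FPKM in control and at 11.3 and 7.83 in the AKG group (-0.63 ± 0.19, limma adjusted p = 0.269). Nts, neurotensin, was at 10.3 and 12.1 FPKM against 7.48 and 7.0, and Penk, proenkephalin, at 36.2 and 37.9 against 31.9 and 23.7. Clock genes lay above control, with 12 of 19 above both control libraries (63.2%, against 26.0% of all genes). Their median was 0.25 (0.14 without control library 1, and 0.13 with the length trend removed). Hlf, a clock output factor, was at 10.6 and 21.95 FPKM in control and at 31.9 and 29.5 in the AKG group, Npas2 at 0.962 and 2.37 against 3.30 and 3.62, and Rorb at 2.29 and 3.26 against 4.50 and 4.48. Control library 1 was the lowest library for these 3 clock genes.

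Xbp1, a factor of the unfolded protein response, was at 50.9 and 45.2 FPKM in control and at 31.1 and 33.2 in the AKG group (-0.56 ± 0.11, and -0.48 ± 0.10 without control library 1, limma adjusted p = 0.269 with all 8 libraries). Slc25a28, the mitochondrial iron importer mitoferrin 2, was at 28.9 and 26.5 FPKM against 20.2 and 19.7. Grin2b, an NMDA receptor subunit, was at 0.890 and 2.76 FPKM against 6.14 and 5.0. None of these 3 genes was called.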
